A study of Homo sapiens with 46 samples.

Results

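The results concern the first 16 h of auxin in DLD-1 cells whose endogenous Lamin A/C carries a degron, and rest on 8 of the 46 RNA-seq libraries of the study. The 8 libraries were taken by their labels: 4 replicates of the Lamin A/C degron line at 16 h and 4 of the same line at 0 h. DLD-1 is an established line from a human colorectal adenocarcinoma. The study also held the untagged parental line and lines with a degron on Lamin B1 or Lamin B2, each at 0, 16 and 96 h. The degron sits at the N-terminal end of the lamin protein in each tagged line. Auxin was used at 1 mM from a solution in DMSO, and the labels do not say whether the 0 h wells received DMSO. Each replicate was 1 well of a culture plate, so a p-value here measures the spread between wells. Nothing in the labels says whether a tagged line is a single clone. The parental line given auxin for the same times shows what auxin alone does, and its 8 libraries at 0 and 16 h are used for comparison. The amount of lamin protein was not analysed here.

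Lamins A and C are made from 1 gene, LMNA, and assemble with the B-type lamins into the filament mesh under the inner nuclear membrane. The mesh gives the nucleus its stiffness, anchors heterochromatin and connects through the LINC complex to the cytoskeleton. The auxin-inducible degron is a plant module: with auxin present, a tagged protein is marked with ubiquitin and destroyed by the proteasome, while the messenger RNA is not a target. Indole auxins can also be ligands of the aryl hydrocarbon receptor, a transcription factor that induces enzymes of foreign-compound metabolism.

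The 8 libraries held between 3318819 and 29739484 counts, and replicate 1 at 0 h was the shallowest. It also stood apart. On the leading principal component, which held 78.8% of the variance over 9977 genes, it scored -71.2, while the other 7 libraries lay between -7.29 and 21.8. Values without it are therefore given beside the main ones where it bears on them. Markers of intestinal epithelium were present, 9 of 11 with a mean of at least 10 CPM (TMM-scaled counts per 1000000 counts), and CDX1 was at 0 in all 8 libraries. Their summed level was 7746 to 10968 CPM at 0 h and 7816 to 9138 CPM at 16 h. Of the markers of other cell types, 7 of 8 for fibroblasts, 6 of 7 for immune cells and 4 of 5 for endothelium had means under 1 CPM. Of 4 neuronal markers 2 were under 1 CPM and 1, MAP2, was over 10 CPM. The sum of the 4 was 14.9 to 29.1 CPM at 0 h and 28.4 to 36.4 CPM at 16 h. The part of this difference in the results was not tested.

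The RNA of the tagged gene did not pass the test. LMNA (ENSG00000160789.24, GRCh38 chr1:156082573-156140081, plus strand) stood at 773, 263, 373 and 332 CPM in the 4 replicates at 0 h and at 402, 329, 355 and 317 CPM at 16 h. Replicate 1 at 0 h was the highest of the 8, and the groups overlapped. The log2 change was -0.31 ± 0.26 (SE, adjusted p = 0.531, edgeR), and 0.14 (adjusted p = 0.9) without that replicate. Since the degron acts on the protein, this RNA checks neither the degradation nor the labels. LMNB1, for Lamin B1, changed by -0.12 ± 0.14 (adjusted p = 0.703), from 201 to 295 CPM at 0 h to 199 to 219 CPM at 16 h. LMNB2, for Lamin B2, changed by -0.24 ± 0.21 (adjusted p = 0.548), from 392 to 634 CPM to 384 to 446 CPM. Both ranges overlapped, and without replicate 1 at 0 h the changes were 0.04 and -0.08.

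After 16 h of auxin, 383 of 21484 genes tested passed an adjusted p of 0.05 (1.78% called), 287 higher (1.34%) and 96 lower (0.447%). The genes that rose included CYP1A1, CDH17, ANGPTL4 and CYP1B1. Among those that fell, 10 came from the mitochondrial genome. Changes of at least 2-fold were reached by 75 of the called genes, 21 higher and 54 lower. The 4 values at 0 h and the 4 at 16 h did not overlap for 289 of the 383 called genes, against 7.89% of all genes tested. The 383 were chosen by a test on these same values, so this share is no separate support for the calls. The count of called genes depended on single libraries. It was 74 (58 higher, 16 lower, 0.344% called) without replicate 1 at 0 h, 2854 without replicate 2 at 0 h, 111 without replicate 3 and 156 without replicate 4. At 16 h it was 171 without replicate 2, 54 without replicate 3 and 44 without replicate 4. The share of called genes that were higher was 74.9% with TMM scaling, 51.6% with RLE scaling and 58.4% with scaling to library size, so this balance moved with the scaling. A fit to the 8 libraries alone called 11 genes. The genes called under each of the other settings (scaling, filter, tool, block, trend removal and each replicate left out) numbered 31, of which 30 rose and 1 fell. With the fit to the 8 libraries counted too, 8 genes were called throughout.

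Those 8 genes, singled out after their values were seen, were CYP1A1, CYP1B1, CDH17, CXCL5, ANGPTL4, SAMD5 and CPT1A, which rose, and MT-ND5, which fell. CDH17, an intestinal cadherin, stood at 23.3, 28.0, 24.0 and 26.1 CPM at 0 h and at 63.9, 67.6, 72.7 and 89.1 CPM at 16 h. Its log2 change was 1.52 ± 0.16 (adjusted p = 6.33e-09), the groups lay far apart, and the change was 1.50 without replicate 1 at 0 h. CXCL5 (chr4:73995642-73998677, minus strand), a neutrophil-attracting chemokine, went from 157, 200, 145 and 154 CPM to 398, 283, 451 and 398 CPM. The lowest library at 16 h exceeded the highest at 0 h, with a log2 change of 1.22 ± 0.14 (adjusted p = 7.93e-08). ANGPTL4 (chr19:8363289-8374370, plus strand), a secreted inhibitor of lipoprotein lipase, rose from 9.39, 3.88, 6.67 and 5.66 CPM to 21.7, 16.4, 21.6 and 16.7 CPM, by 1.71 ± 0.25 (adjusted p = 4.05e-05). CPT1A, which loads fatty acids for entry into mitochondria, had 56.7, 50.7, 45.6 and 46.7 CPM at 0 h and 85.3, 91.7, 95.1 and 88.3 CPM at 16 h, a log2 change of 0.86 ± 0.14 (adjusted p = 0.000293). SAMD5 rose from 17.8 to 21.6 CPM at 0 h to 38.6 to 46.7 CPM at 16 h, by 1.08 ± 0.14 (adjusted p = 5.25e-06). In the plot of levels by library, none of these genes has a 0 h value that reaches its 16 h values.

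**Figure D1:**
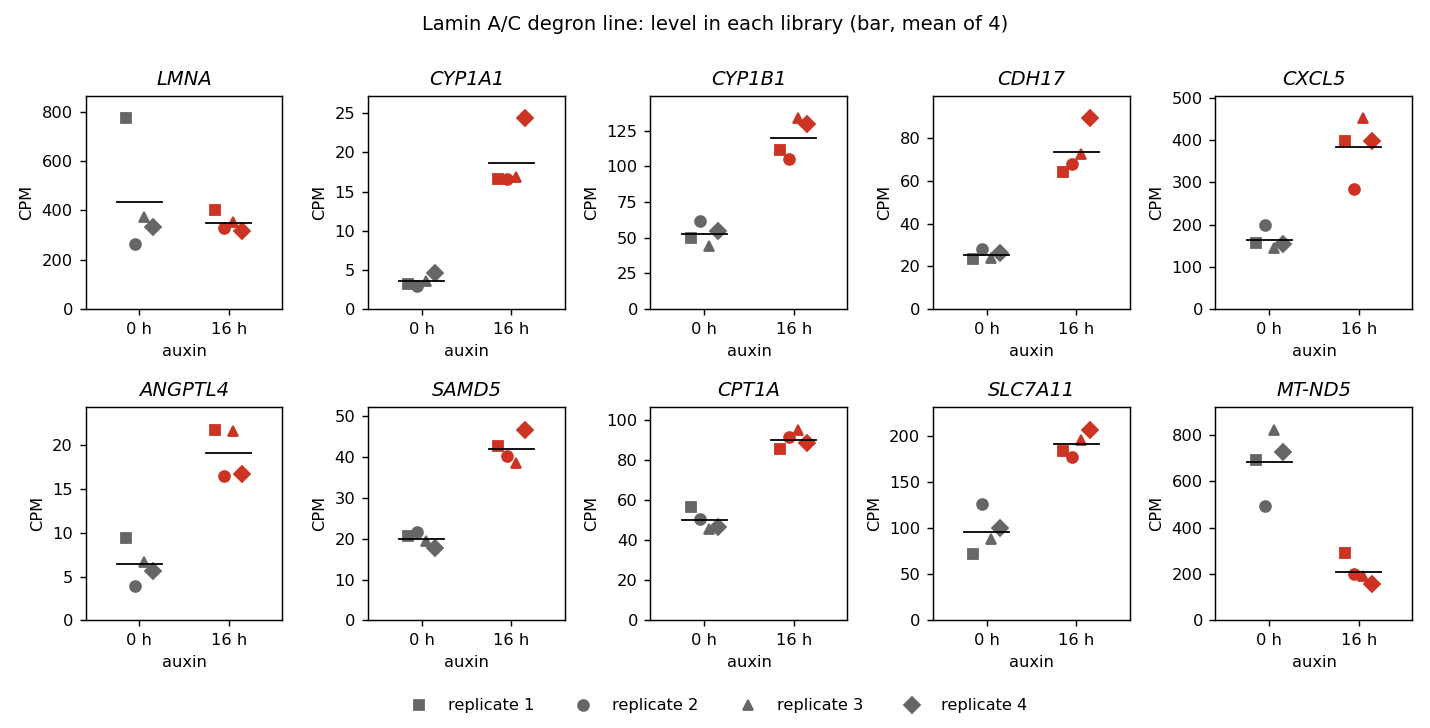
Level of 10 genes in each of the 8 libraries of the Lamin A/C degron line, in CPM on linear axes that start at 0. Marker shapes are replicates 1 to 4, grey at 0 h and red at 16 h, and the bar is the mean of 4. LMNA overlaps between the times, with replicate 1 at 0 h highest at 773 CPM, and the other 9 genes do not overlap.

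Of 11 tested genes of the aryl hydrocarbon receptor pathway, 3 rose and none fell, where 1.34% of all genes tested rose and 0.447% fell. The list median was 0.30 against -0.02 over all genes tested (log2). Without replicate 1 at 0 h, 3 of the list rose as well. CYP1A1 (ENSG00000140465.15, chr15:74719542-74725536, minus strand), the enzyme whose induction defines the response, stood at 3.24, 2.96, 3.65 and 4.68 CPM at 0 h and at 16.6, 16.7, 16.8 and 24.3 CPM at 16 h. All 4 libraries at 16 h lay above all 4 at 0 h, and the log2 change was 2.35 ± 0.23 (adjusted p = 1.62e-09). CYP1B1, a related monooxygenase, went from 49.5, 61.7, 44.2 and 54.8 CPM to 112, 105, 133 and 130 CPM, again without overlap (1.18 ± 0.13, adjusted p = 5.06e-08). NQO1, a quinone reductase, went from 106, 168, 152 and 165 CPM to 249, 265, 315 and 278 CPM (0.90 ± 0.13, adjusted p = 1.33e-05). TIPARP, a target that feeds back on the receptor, had a change of 0.57 (adjusted p = 0.0614). The receptor gene AHR had -0.44 (adjusted p = 0.195), its repressor AHRR -0.12 (adjusted p = 0.897) and its partner ARNT 0.13 (adjusted p = 0.54). The parental line, which has no degron, gave values of 3.24 ± 0.26 for CYP1A1 and 1.09 ± 0.13 for CYP1B1. For neither gene did the difference between the lines' responses pass the test (-0.89 ± 0.36, adjusted p = 0.293, and 0.09 ± 0.19, adjusted p = 0.898).

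The promoter of CYP1A1 is shown because this gene had the largest rise by the naming rule. It is the RefSeq window of GRCh38.p14 from 250 bases before the gene's start to 50 after it, chr15:74725479-74725778 on the minus strand. Capitals mark the core of the xenobiotic response element, searched as GCGTG on both strands, which also lies within sites of hypoxia-inducible factors.
CYP1A1: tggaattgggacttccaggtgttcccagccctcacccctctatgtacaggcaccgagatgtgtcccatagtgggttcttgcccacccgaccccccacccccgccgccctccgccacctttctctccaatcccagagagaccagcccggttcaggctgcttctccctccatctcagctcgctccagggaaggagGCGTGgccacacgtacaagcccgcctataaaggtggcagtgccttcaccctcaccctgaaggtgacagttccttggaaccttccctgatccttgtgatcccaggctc
The core begins at position -57, with the start of the gene as position 1. It occurred in 8 of the 10 list members that have a window in the table. Of these carriers CYP1A1 and NQO1 rose, and AHR, AHRR, TIPARP, UGT1A6, SLC7A5 and NFE2L2 were not called. The core is also a common word, found in 48.6% of 12385 promoters of tested genes.

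Targets of NRF2, the factor that answers oxidative and electrophilic stress, held 5 rises and no fall among 17 tested, with a list median of 0.13. Over all genes tested 1.34% rose. The 5 targets that rose were the glutathione genes SLC7A11, GCLM and GCLC, with NQO1 and ME1. SLC7A11 (ENSG00000151012.13, chr4:138164097-138242349, minus strand), the cystine importer that feeds glutathione synthesis, stood at 71.5, 126, 88.0 and 99.9 CPM at 0 h and at 184, 177, 196 and 207 CPM at 16 h. The groups did not overlap, and the log2 change was 0.97 ± 0.14 (adjusted p = 2.19e-05). GCLM, the modifier subunit of the ligase that makes the glutathione precursor, went from 51.1, 84.1, 54.2 and 64.6 CPM to 96.4, 103, 114 and 110 CPM (0.72 ± 0.14, adjusted p = 0.00245). GCLC, the catalytic subunit, rose by 0.62 ± 0.16 (adjusted p = 0.0354). ME1, the cytosolic malic enzyme that yields NADPH, rose from 99.7 to 197 CPM to 206 to 256 CPM, by 0.62 ± 0.13 (adjusted p = 0.00556). Without replicate 1 at 0 h, which was the lowest library for GCLC and ME1, their adjusted p was 0.205 and 0.0678, and 3 of the list were called. The best-known NRF2 target outside this group, HMOX1 for heme oxygenase, was at 2.91 to 6.40 CPM and 6.60 to 8.91 CPM (0.40, adjusted p = 0.324). TXNRD1, a thioredoxin reductase, had 0.28 (adjusted p = 0.123). In the parental line 1 of the 17 rose and 2 fell, where 9.01% of all genes tested were called. The difference of responses was called for 1 of the 17, SLC7A11, against 0.116% of all genes tested. It did not pass for GCLM (0.42 ± 0.19, adjusted p = 0.369) or GCLC (0.53 ± 0.23, adjusted p = 0.345).

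The promoters of GCLM (chr1:93909381-93909680, minus strand) and ME1 (chr6:83431002-83431301, minus strand) are shown because both genes rose and their windows hold the antioxidant response element. Capitals mark it, searched as TGACNNNGC on both strands. The word can overlap a site of AP-1, TGACTCA.
GCLM: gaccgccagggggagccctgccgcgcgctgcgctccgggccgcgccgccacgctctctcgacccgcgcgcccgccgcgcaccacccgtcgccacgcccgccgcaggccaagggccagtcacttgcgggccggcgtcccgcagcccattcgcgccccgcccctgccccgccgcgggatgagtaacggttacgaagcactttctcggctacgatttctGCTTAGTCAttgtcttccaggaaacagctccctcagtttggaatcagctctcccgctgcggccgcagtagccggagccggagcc
ME1: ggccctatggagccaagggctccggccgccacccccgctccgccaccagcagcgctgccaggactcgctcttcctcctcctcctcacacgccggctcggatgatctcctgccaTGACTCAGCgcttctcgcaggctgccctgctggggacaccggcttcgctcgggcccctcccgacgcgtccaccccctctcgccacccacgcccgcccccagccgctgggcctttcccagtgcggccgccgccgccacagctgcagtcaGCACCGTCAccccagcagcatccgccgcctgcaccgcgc
The element begins at position -34 in GCLM and at positions -137 and 12 in ME1, with the start of the gene as position 1. It was in 4 of the 14 list members with a window and in 14.9% of all 12385. The other carriers on the list, TXNRD1 and PGD, were not called.

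Among 26 tested genes of the ATF4 response to amino acid shortage, 2 rose, against 1.34% of all genes tested. They were SLC7A11 again and MTHFD2, a mitochondrial folate enzyme (231, 305, 270 and 272 CPM to 356, 343, 434 and 375 CPM, 0.48 ± 0.11, adjusted p = 0.0117). MTHFD2 had an adjusted p of 0.0893 without replicate 1 at 0 h. With the trend of each library on GC content and length removed, 1.4% of all genes tested rose. In that refit 6 of the 26 rose: SLC7A11, GDF15, CHAC1, PSPH, SLC3A2 and DDIT4. In the main fit ATF4 itself had 0.10 (adjusted p = 0.627), DDIT3 0.05 (adjusted p = 0.94) and CHAC1 0.13 (adjusted p = 0.601). GDF15, a secreted stress marker, was at 196 to 377 CPM and 340 to 421 CPM (0.60, adjusted p = 0.102), and rose by 0.89 (adjusted p = 0.023) without replicate 1 at 0 h. None of 18 genes of the unfolded protein response and heat shock was called, with a median of 0.06.

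RNA from the mitochondrial genome was lower at 16 h. All 15 tested messenger and ribosomal RNAs of that genome had a lower fitted mean, and 9 fell, against 0.447% of all genes tested. The list median was -1.20 against -0.02 over all genes tested. The 9 that fell were subunits of complex I (MT-ND1, MT-ND2, MT-ND4, MT-ND5 and MT-ND6), complex III (MT-CYB), complex IV (MT-CO2) and the ATP synthase (MT-ATP6 and MT-ATP8). MT-ND5 stood at 692, 492, 822 and 724 CPM at 0 h and at 288, 201, 190 and 159 CPM at 16 h, a change of -1.70 ± 0.30 (adjusted p = 0.00111). MT-ND6, which is encoded on the opposite strand, went from 168, 97.3, 173 and 152 CPM to 78.8, 47.9, 32.2 and 30.1 CPM (-1.64 ± 0.37, adjusted p = 0.012). For both genes each 16 h library lay under each 0 h library. MT-CO2 went from 546, 459, 808 and 665 CPM to 291, 245, 277 and 263 CPM (-1.20 ± 0.27, adjusted p = 0.013). MT-CO1 and MT-CO3, the other subunits of complex IV, did not pass, at -0.60 ± 0.30 (adjusted p = 0.256) and -0.69 ± 0.25 (adjusted p = 0.109).

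Without replicate 1 at 0 h, 8 of the 15 fell, and MT-ATP8 was the one lost (adjusted p = 0.138). The ribosomal RNAs, which the library kit is meant to deplete, varied too widely to compare: MT-RNR2 ran from 51.4 to 1585 CPM at 0 h and from 29.6 to 1097 CPM at 16 h. Including transfer RNAs, 26 of 27 tested genes of this genome had a lower fitted mean, and 10 fell. The exception was MT-TH, at 0.53 (adjusted p = 0.702). The share of all counts that came from this genome was 0.844%, 0.986%, 1.61% and 1.40% at 0 h and 0.619%, 0.525%, 0.716% and 0.556% at 16 h. These groups did not overlap, and the difference of the means was -0.605 percentage points (exact permutation test, two-sided, p = 0.0286, the smallest that 4 against 4 allow). Fewer mitochondrial genomes, less RNA from each and more RNA from the nucleus cannot be told apart here. The parental line showed lower levels as well, with 9 of the 15 called, against 9.01% of all genes tested there, and a median of -1.09. The difference of responses was called for 0 of the 15 by edgeR, DESeq2 or voom, with 0 at an unadjusted p under 0.05.

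**Figure D2:**
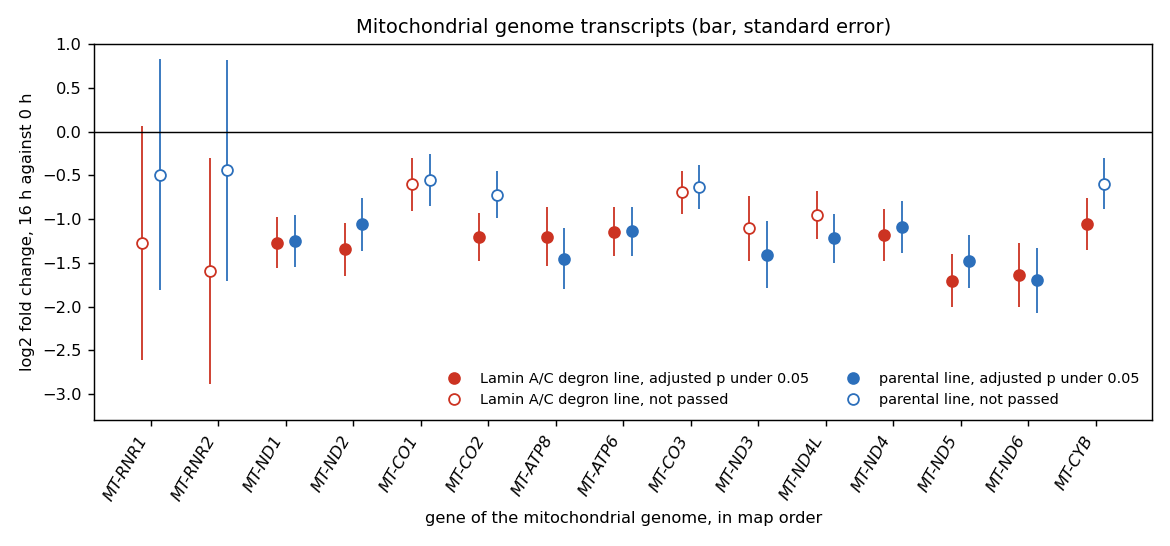
Log2 fold change of 15 mitochondrial genome transcripts at 16 h against 0 h, in map order, in the Lamin A/C degron line (red) and the parental line (blue). Bars are standard errors, and filled points passed an adjusted p of 0.05. Every point lies under 0, and MT-ND5 and MT-ND6 are the lowest of those that passed in the Lamin A/C line.

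Outside these lists, further large rises were found mostly in genes of low level. PTPRR, a receptor-type phosphatase, went from 1.62, 3.40, 2.38 and 3.24 CPM to 8.66, 9.24, 6.88 and 11.5 CPM (1.64 ± 0.27, adjusted p = 0.000277). ITGA9, an integrin chain, rose by 1.35 ± 0.27 (adjusted p = 0.00541), IL33, a nuclear alarmin, by 1.29 ± 0.29 (adjusted p = 0.012), and EDAR, the ectodysplasin receptor, by 1.14 ± 0.25 (adjusted p = 0.0118). TRIM2, a ubiquitin ligase, went from 18.8, 58.0, 31.9 and 34.4 CPM to 76.6, 86.6, 96.5 and 108 CPM (1.31 ± 0.18, adjusted p = 1.06e-05). BMF, a cell death activator of the BCL2 family, went from 8.42, 7.25, 5.72 and 6.18 CPM to 13.1, 15.7, 13.2 and 18.7 CPM (1.16 ± 0.21, adjusted p = 0.00152). These 6 genes were also called without replicate 1 at 0 h. The groups of each did not overlap, which the naming rule required, so this is no separate support. In the parental line each of the 6 was also called higher: PTPRR by 1.13 (adjusted p = 0.0166), ITGA9 by 1.29 (0.00248) and IL33 by 0.88 (0.0212). EDAR rose there by 0.81 (adjusted p = 0.0272), TRIM2 by 0.78 (0.00437) and BMF by 0.91 (0.00427). The difference of responses was called for none of them. PTGS2, the inducible cyclooxygenase, rose from 4.21 to 9.95 CPM to 14.6 to 18.9 CPM (1.24 ± 0.30, adjusted p = 0.0204), with an adjusted p of 0.0817 without replicate 1 at 0 h. In the parental line PTGS2 had 0.12 ± 0.34 (adjusted p = 0.86). PTGS2 overlaps an antisense gene, PACERR, whose reads may be counted with it, and CYP1B1, ITGA9, BMF, ITGB8, SLC7A11, GCLC, RDH10 and ALDH1A3 have antisense neighbours of the same kind. ST6GALNAC3, a sialyltransferase, was at 0 in replicates 1 and 3 at 0 h, which allows up to 0.971 and 0.477 CPM, at 0.850 and 0.377 CPM in the other two, and at 1.14 to 2.13 CPM at 16 h. Its change (1.93 ± 0.52, adjusted p = 0.0414) and that of LINC02035, a noncoding RNA (1.35 ± 0.37, adjusted p = 0.0414), did not pass with the replicate number as a block (adjusted p = 0.0632 and 0.0526). Neither passed without replicate 1 at 0 h (adjusted p = 0.152 and 0.0942).

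Among nuclear genes that fell, IGFL1, an insulin growth factor-like ligand, changed most. It stood at 3.24, 0.813, 1.75 and 1.73 CPM at 0 h and at 0.0688, 0, 0.141 and 0.448 CPM at 16 h. Each 16 h library lay under each 0 h library, as the naming rule required (-3.16 ± 0.58, adjusted p = 0.00154). Replicates 1, 2 and 3 at 16 h were at or under the level of 3 counts (0.206, 0.155 and 0.141 CPM). LRRC4, a synaptic adhesion protein gene that lies opposite SND1 on the other strand, went from 7.45, 5.32, 8.58 and 9.80 CPM to 3.44, 3.61, 1.98 and 3.00 CPM (-1.36 ± 0.27, adjusted p = 0.00419). Both were also called without replicate 1 at 0 h. GDF7, a bone morphogenetic protein ligand, had -1.52 ± 0.36 (adjusted p = 0.0182) and ADGRA2, an adhesion receptor, -1.33 ± 0.32 (adjusted p = 0.0204), and without that replicate the adjusted p was 0.0599 and 0.0985. MTND4P12, a nuclear copy of a mitochondrial gene whose reads may belong to MT-ND4, had -2.26 ± 0.53 (adjusted p = 0.0198), and 0.0526 without that replicate. In the parental line IGFL1 (-3.28, adjusted p = 7.7e-05), LRRC4 (-1.38, adjusted p = 0.00129) and MTND4P12 (-2.25, adjusted p = 0.0109) were also called lower. GDF7 and ADGRA2 were not called there (adjusted p = 0.078 and 0.413). For neither did the difference of responses pass (-0.51 ± 0.51, adjusted p = 0.734, and -0.88 ± 0.46, adjusted p = 0.424).

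Several of the larger falls were not called without replicate 1 at 0 h, the library that stood apart. ENDOG, the mitochondrial endonuclease G, was at 29.5 CPM there and at 5.10, 8.58 and 7.32 CPM in the other 0 h libraries, against 2.54, 4.28, 4.34 and 3.23 CPM at 16 h. Its change was -1.64 ± 0.45 (adjusted p = 0.0453), and -0.90 (adjusted p = 0.431) without it. HES7, a Notch-pathway repressor, was at 42.1 CPM there and at 7.47, 11.0 and 11.9 CPM in the others, against 4.39 to 6.67 CPM at 16 h (-1.60 ± 0.44, adjusted p = 0.0433, and -0.84, adjusted p = 0.455). HOXA10-AS, a noncoding RNA that overlaps HOXA9 and HOXA10 on the other strand, had -1.69 ± 0.42 (adjusted p = 0.026) and -1.06 (adjusted p = 0.291). GPER1, an oestrogen receptor of the cell surface, had -1.57 ± 0.39 (adjusted p = 0.026) and -1.03 (adjusted p = 0.269). For ZNF763, a zinc finger gene, the values were -1.40 ± 0.37 (adjusted p = 0.0367) and -1.11 (adjusted p = 0.249). With the replicate number as a block, ENDOG, HES7 and ZNF763 had an adjusted p of 0.0644, 0.0591 and 0.0518.

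In the signalling lists few members were called. Over all genes tested 1.34% rose and 0.447% fell. Of 20 immediate early genes 2 rose: FOS (22.0, 18.0, 21.4 and 21.6 CPM to 40.2, 35.6, 36.7 and 51.4 CPM, 0.99 ± 0.17, adjusted p = 0.000662) and EGR1 (216, 165, 202 and 196 CPM to 305, 292, 292 and 287 CPM, 0.60 ± 0.16, adjusted p = 0.0374). Both are transcription factors induced by growth signals, and neither overlapped between the times. In the parental line EGR1 was also called (0.74 ± 0.16, adjusted p = 0.00235), and FOS was not (0.44 ± 0.17, adjusted p = 0.0911). The difference of responses did not pass for FOS (0.55 ± 0.24, adjusted p = 0.344). FOS passed in 18 of 19 alternative settings and did not pass with the compared libraries only (adjusted p = 0.0788). EGR1 passed in 11, and did not pass with RLE scaling, with the compared libraries only, without replicate 3 or 4 at 0 h, or without any 1 of the 4 replicates at 16 h. Of 12 integrin genes 2 rose, with a list median of 0.40. They were ITGB8 (24.3, 30.2, 23.7 and 21.9 CPM to 43.8, 44.1, 48.4 and 50.6 CPM, 0.89 ± 0.16, adjusted p = 0.000733) and its partner chain ITGAV (216, 385, 278 and 306 CPM to 408, 382, 460 and 450 CPM, 0.52 ± 0.14, adjusted p = 0.044). The heterodimer of these chains activates latent TGF-beta. ITGAV overlapped between the times and had an adjusted p of 0.285 without replicate 1 at 0 h.

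For the lists that follow, the share of all genes tested that rose was again 1.34%. Of 12 retinoid genes 2 rose, both enzymes on the path from retinol to retinoic acid: RDH10 (128 to 178 CPM to 192 to 240 CPM, 0.56 ± 0.11, adjusted p = 0.00528) and ALDH1A3 (3.56, 5.77, 3.81 and 4.00 CPM to 7.70, 8.36, 9.90 and 8.38 CPM, 0.93 ± 0.20, adjusted p = 0.0111). The receptors and CYP26B1, which degrades retinoic acid, were not called. In the parental line RDH10 was also called (0.56 ± 0.11, adjusted p = 0.00144), and ALDH1A3 was not (0.02 ± 0.22, adjusted p = 0.963). The difference of responses did not pass for ALDH1A3 (0.91 ± 0.30, adjusted p = 0.191). PER2 was the 1 called gene of 16 in the circadian clock (19.1, 30.9, 31.6 and 33.3 CPM to 43.8, 46.2, 48.8 and 51.9 CPM, 0.70 ± 0.13, adjusted p = 0.00154), while PER1 had 0.03 (adjusted p = 0.953). In the parental line PER2 rose as well (1.07 ± 0.13, adjusted p = 8.25e-07). With the trend removed 3 of the 16 clock genes rose, as did 2 of 22 p53 targets, where 1.4% of all genes tested rose. LGR5, a stem cell receptor, was the 1 called gene of 14 in WNT feedback and rose by 0.62 ± 0.16 (adjusted p = 0.0354). Its level at 0 h was 33.0 CPM in replicate 1 and 63.1 to 68.9 CPM in the others, and without replicate 1 its adjusted p was 0.226. SC5D, the 1 called gene of 24 in cholesterol synthesis, rose by 0.71 ± 0.19 (adjusted p = 0.0395), with 0.263 without it. MDM2, the p53 ubiquitin ligase and the 1 called gene of 22 p53 targets (0.41 ± 0.11, adjusted p = 0.0367), and PHLDA1, the 1 of 14 genes of MAPK feedback (0.45 ± 0.12, adjusted p = 0.0464), did not pass with the block (adjusted p = 0.0599 and 0.0504) or without replicate 1 (adjusted p = 0.0754 and 0.126). In the parental line MDM2 was also called (0.37 ± 0.11, adjusted p = 0.0256), and PHLDA1 was not (0.30 ± 0.12, adjusted p = 0.119). The difference of responses did not pass for PHLDA1 (0.15 ± 0.18, adjusted p = 0.782).

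Genes of mechanical signalling were mostly not called, where 1.78% of all genes tested were called and 0.447% fell. Of 22 YAP targets 1 fell, ANKRD1 (30.8, 38.1, 31.3 and 40.6 CPM to 22.3, 21.8, 23.1 and 16.4 CPM, -0.77 ± 0.17, adjusted p = 0.0122), a cofactor gene widely used as a readout of YAP. The standard targets CCN1 and CCN2 had 0.03 (adjusted p = 0.952) and 0.25 (adjusted p = 0.388). Of 25 SRF targets and contractile actin genes 0 were called, with a median of -0.09. Of 6 caveolar genes 1 fell, EHD2 (13.1 to 24.0 CPM to 8.60 to 12.4 CPM, -0.77 ± 0.21, adjusted p = 0.0458), which did not pass with the block (adjusted p = 0.0515) or without replicate 1 at 0 h (adjusted p = 0.264). In the parental line EHD2 fell as well (-0.82 ± 0.23, adjusted p = 0.0171).

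At the nuclear envelope, 0 of 15 inner membrane and lamina partners, 0 of 6 LINC genes, 0 of 31 nuclear pore genes and 0 of 5 lamin processing enzymes were called, with log2 changes from -0.50 to 0.48 over the 4 lists. Over all genes tested 1.78% were called. ZMPSTE24, the protease that matures prelamin A, stood at 105, 297, 185 and 213 CPM at 0 h and at 267 to 310 CPM at 16 h (0.48 ± 0.17, adjusted p = 0.105, and 0.29, adjusted p = 0.549, without replicate 1 at 0 h). Of 27 heterochromatin writers and readers 1 rose, CBX5, the gene of heterochromatin protein 1 alpha (531, 839, 696 and 699 CPM to 1003, 1055, 1045 and 1081 CPM, 0.60 ± 0.15, adjusted p = 0.0298). Without replicate 1 at 0 h CBX5 had 0.50 (adjusted p = 0.188), and in the parental line it had 0.70 ± 0.15 (adjusted p = 0.00269).

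No gene was called among 26 interferon-stimulated genes (median 0.21), 12 sensors of nucleic acids (0.06), 32 S phase genes (0.00), 37 mitotic genes (0.13), 26 genes of glycolysis and hypoxia (-0.09), 77 cytosolic ribosomal proteins (-0.22), 9 cytoplasmic intermediate filament and plectin genes (-0.12), 11 secretory lineage genes (-0.08) or 9 abundant nuclear noncoding RNAs (0.01). Over the 16 lists without a call in the edgeR fit, the 3 lamins included, 75 of 342 genes had an unadjusted p under 0.05 (21.9%, against 20.0% of all genes tested). DESeq2 called 17 (4.97% against 5.81%) and voom with quality weights 50 (14.6% against 13.0%), so these shares were near those of all genes. The plot of the lists shows that the mitochondrial list was the one whose members lay wholly to 1 side of 0 among lists with more than 3 members.

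**Figure D3:**
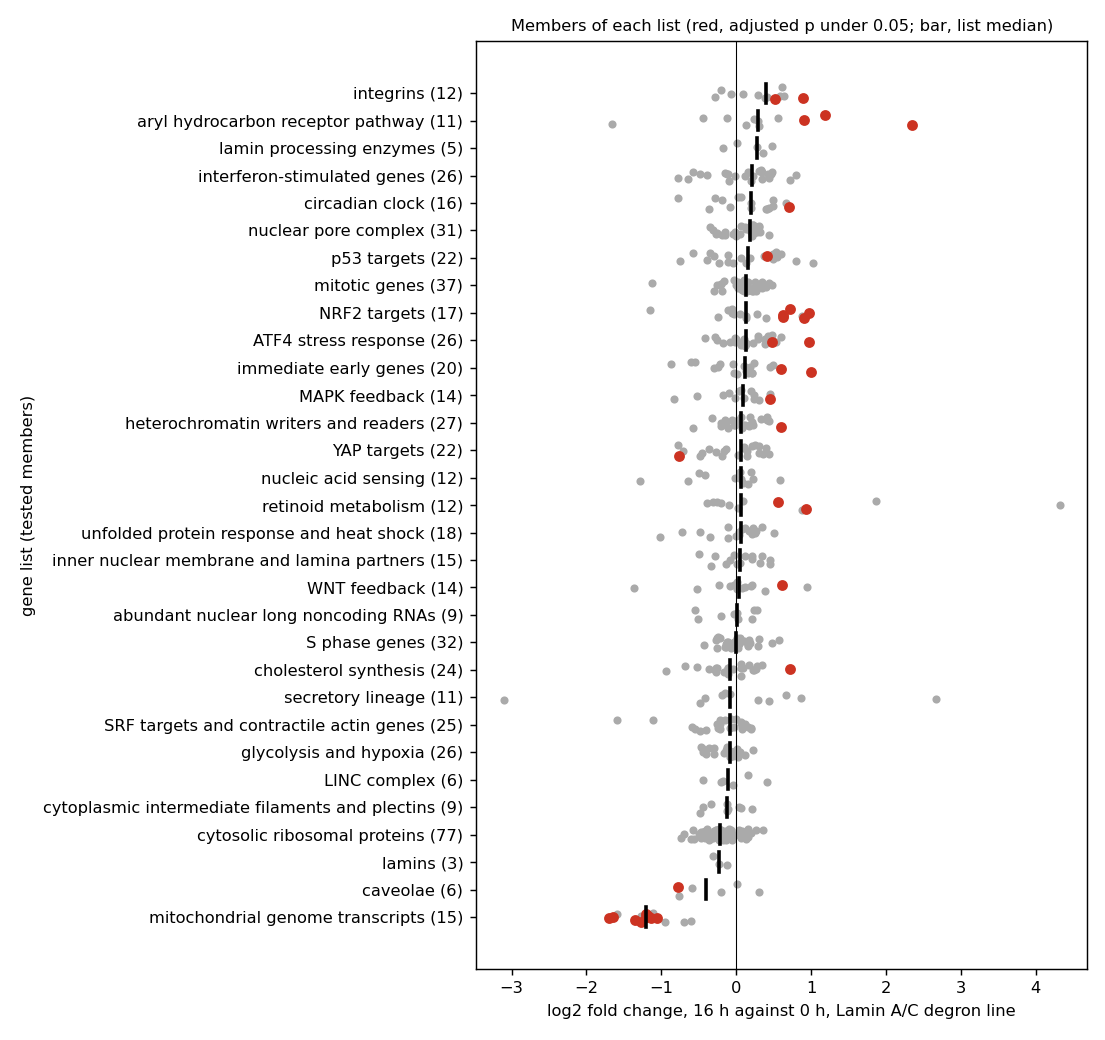
Log2 fold change at 16 h against 0 h in the Lamin A/C degron line for each tested member of the 31 gene lists, with the number of tested members in brackets. Red points passed an adjusted p of 0.05 and bars are list medians. The median is -1.20 for mitochondrial genome transcripts and lies between -0.40 and 0.40 for the other lists.

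The size of a gene's change followed the base composition of its transcripts. Over 9631 genes with a mean of at least 10 CPM, Spearman's rho between the log2 change and GC content was -0.67, as a description across genes, which are not independent. It was -0.49 without replicate 1 at 0 h and 0.00 in the parental line. By single library, rho between GC content and the library's deviation from the mean of the 8 was 0.688, -0.685, 0.434 and 0.138 at 0 h and -0.270, -0.519, -0.619 and -0.701 at 16 h. Replicate 2 at 0 h, the deepest library, thus lay with the 16 h libraries. In the quintile of lowest GC content 127 genes rose and 6 fell, and in that of highest GC content 4 rose and 49 fell. Without replicate 1 at 0 h these counts were 13 and 1, and 5 and 1. The median GC content was 43.1% for genes that rose, 58.4% for genes that fell and 49.2% for all tested. With the trend of each library on GC content and length removed, 408 genes were called (301 higher, 107 lower), (1.4% and 0.498%), and the quintile of highest GC content then held 51 rises and 19 falls. Of the 383 genes called in the main fit, 228 were among the 408 in the same direction. The part of this trend in the calls of single genes was not tested beyond that refit. In it, CYP1A1 (2.43), CYP1B1 (1.21), CDH17 (1.40), ANGPTL4 (2.08), CXCL5 (0.94), SLC7A11 (0.67) and MT-ND5 (-1.79) were called, and ITGAV, CBX5, LGR5, PHLDA1, MDM2, EHD2, MTHFD2, RDH10, ENDOG, HES7, ST6GALNAC3 and LINC02035 were not.

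**Figure D4:**
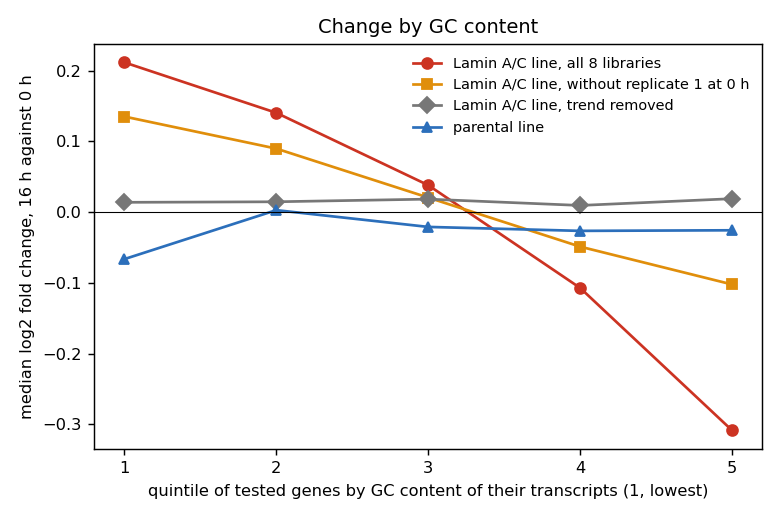
Median log2 fold change at 16 h against 0 h in quintiles of the tested genes by GC content of their transcripts, from lowest (1) to highest (5). The Lamin A/C line runs from 0.21 to -0.31 with its 8 libraries and from 0.14 to -0.10 without replicate 1 at 0 h, and lies near 0 with the trend removed, as the parental line does.

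The parental line was treated to show what auxin does without a degron. There, 1935 genes were called at 16 h (9.01% called). Of the 383 genes called in the Lamin A/C line, 126 were called in the same direction in the parental line, 102 higher and 24 lower. These were 32.9% of the calls of the Lamin A/C line and 6.51% of those of the parental line. Without replicate 1 at 0 h, 46 of the 74 calls (62.2%) were called in the same direction in the parental line. With it, a further 2 were called in opposite directions, and 344 of the 383 (89.8%) had the same sign. The share of all genes tested with the same sign is not given here, so nothing is read from the 89.8%. The 2 lines share no libraries in this comparison. Over 9671 genes with a mean of at least 10 CPM, the 2 sets of changes had a Pearson correlation of 0.39 and a Spearman correlation of 0.33 across genes. Of the 31 genes called under each setting other than the fit to the 8 libraries, 18 were called in the same direction in the parental line, including CDH17 (1.00), ANGPTL4 (1.29), CPT1A (0.58) and SAMD5 (1.00). CXCL5 had 0.40 ± 0.14 (adjusted p = 0.0591) and NQO1 0.22 ± 0.12 (adjusted p = 0.268) in the parental line. The difference of responses did not pass for either (0.82 ± 0.20, adjusted p = 0.0738, and 0.68 ± 0.18, adjusted p = 0.0965).

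Whether the Lamin A/C line responded otherwise than the parental line was tested directly, as the difference of their changes. It was called for 25 genes (0.116% called), 16 with a higher and 9 with a lower response in the Lamin A/C line. Of these, 22 had been called in the parental line and 6 in the Lamin A/C line, 3 of them in both. Of the 16, 14 fell in the parental line and 4 rose in the Lamin A/C line. Of the 9, 8 rose in the parental line and 1 fell in the Lamin A/C line. Between the lines at 0 h 21 of the 25 were called, against 15.8% of all genes tested. The difference of responses uses the same 0 h libraries, so nothing is read from this count. With the replicate number as a block the count was 15. It was 139 without replicate 2 of the Lamin A/C line at 0 h, 15 or 16 without its replicates 1, 2 or 4 at 16 h, 13 without parental replicate 1 at 0 h, and 16 and 15 without parental replicates 3 and 4 at 16 h.

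SLC7A11 was a gene that moved in the Lamin A/C line itself. Its rise of 0.97 stood against -0.30 ± 0.14 (adjusted p = 0.158) in the parental line, a difference of 1.28 ± 0.20 (adjusted p = 0.000461). The parental libraries were at 204, 220, 174 and 186 CPM at 0 h and 166, 166, 163 and 141 CPM at 16 h. The Lamin A/C line had thus begun lower, at 71.5 to 126 CPM, and at 16 h lay above the parental line. This difference, and those of ANKRD1, ASNS, CDX2 and SRM, passed in 27 of 27 alternative settings.

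ANKRD1 fell in both lines. In the parental line it went from 117, 96.1, 85.9 and 96.7 CPM to 12.7, 13.0, 14.7 and 12.7 CPM (-2.90 ± 0.18, adjusted p = 2.33e-16), and the difference of the responses was 2.13 ± 0.25 (adjusted p = 4.78e-07). At 16 h the Lamin A/C line stood higher, at 16.4 to 23.1 CPM, although it had begun lower.

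The other named genes with a higher response had not moved past the test in the Lamin A/C line. GPR183, a receptor for oxysterols, fell in the parental line from 5.48, 5.53, 5.38 and 4.11 CPM to 2.09, 2.13, 1.39 and 1.03 CPM. In the Lamin A/C line it was at 1.29 to 1.89 CPM and 1.98 to 3.30 CPM (0.65, adjusted p = 0.25), a difference of 2.20 ± 0.45 (adjusted p = 0.0187). ASNS, asparagine synthetase, fell in the parental line from 13.8, 11.6, 11.1 and 9.91 CPM to 4.55, 5.50, 5.87 and 4.56 CPM. It was at 3.24 to 4.36 CPM and 3.63 to 7.22 CPM in the Lamin A/C line, a difference of 1.72 ± 0.31 (adjusted p = 0.00362). At 16 h the lines overlapped. With the block, the adjusted p was 0.105 for GPR183, 0.12 for HEG1 and 0.0518 for BAMBI. HEG1, a junction receptor of the cell surface, had a change of -1.58 ± 0.25 in the parental line and of -0.01 here (difference 1.57 ± 0.35, adjusted p = 0.0397), and passed in 13 of 27 settings. SYNE1, which codes for nesprin 1 of the LINC complex, fell there from 6.64 to 10.3 CPM to 3.48 to 4.56 CPM and was here at 4.21 to 7.24 CPM and 6.45 to 8.16 CPM (difference 1.56 ± 0.31, adjusted p = 0.0136).

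The promoter of ASNS (chr7:97872359-97872658, minus strand) is shown because its response differed between the lines and its window holds the amino acid response element, bound by ATF4. Capitals mark it, searched as TGATGNAA on both strands.
ASNS: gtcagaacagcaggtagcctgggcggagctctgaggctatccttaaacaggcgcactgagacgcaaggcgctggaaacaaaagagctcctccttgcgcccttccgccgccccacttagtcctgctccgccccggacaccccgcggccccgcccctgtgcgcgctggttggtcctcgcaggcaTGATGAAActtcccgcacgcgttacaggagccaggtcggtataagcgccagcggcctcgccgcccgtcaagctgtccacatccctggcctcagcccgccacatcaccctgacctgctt
The element begins at position -68. It was in 4 of 23 windows of the ATF4 list (ASNS, CHAC1, SLC3A2 and FGF21) and in 1.95% of all 12385.

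The 5 named genes with a lower response were ones that rose in the parental line. CDX2, the master transcription factor of intestinal identity, rose there from 89.0, 84.2, 107 and 74.4 CPM to 189, 221, 236 and 228 CPM (1.30 ± 0.13, adjusted p = 1.59e-09). In the Lamin A/C line it stood at 118, 123, 126 and 139 CPM and then 164, 155, 150 and 163 CPM (0.32 ± 0.13, adjusted p = 0.151), a difference of -0.98 ± 0.18 (adjusted p = 0.00511). The 2 groups of the Lamin A/C line did not overlap even so. SRM, spermidine synthase, rose in the parental line by 0.63 ± 0.15 and had -0.48 ± 0.15 (adjusted p = 0.0664) here, or -0.32 without replicate 1 at 0 h, a difference of -1.11 ± 0.21 (adjusted p = 0.00616). NUAK2, a stress kinase (-1.12 ± 0.24, adjusted p = 0.0222), HGH1 (-1.07 ± 0.20, adjusted p = 0.00616) and BAMBI, a decoy receptor of the TGF-beta family (-1.04 ± 0.23, adjusted p = 0.042), differed in the same direction. Without replicate 1 of the Lamin A/C line at 0 h, 23 genes were called in this comparison, BAMBI and HEG1 not among them (adjusted p = 0.0625 and 0.0649). With the trend on GC content removed, HGH1 did not pass (adjusted p = 0.15).

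**Figure D5:**
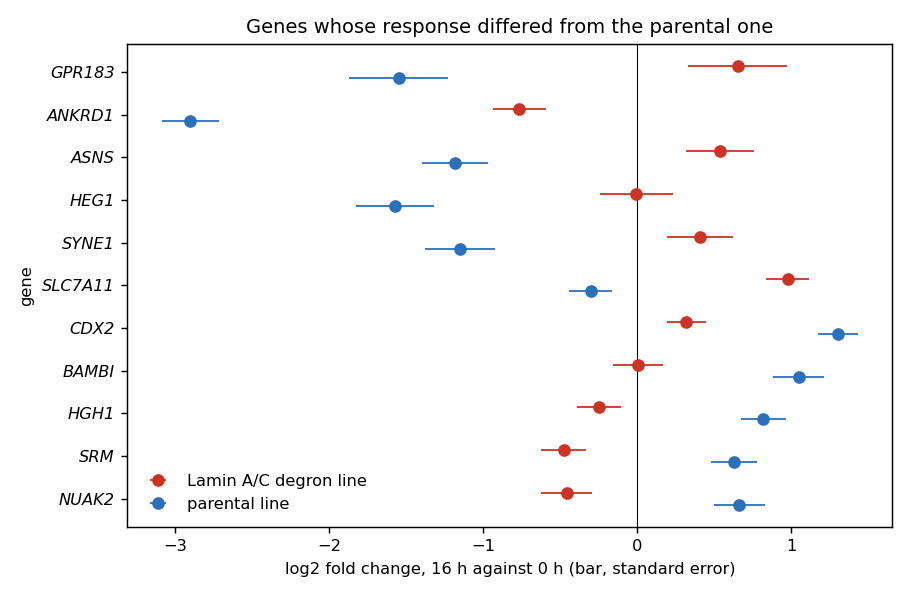
Log2 fold change at 16 h against 0 h, with standard errors, in the Lamin A/C degron line (red) and the parental line (blue) for 11 named genes whose responses differed. GPR183, ANKRD1, ASNS, HEG1 and SYNE1 are lowest in the parental line, and SLC7A11 and ANKRD1 have the largest changes in the Lamin A/C line.

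At 96 h, in a comparison that shares the 0 h libraries, CDH17 had a change of 2.03 from 0 h where it had 1.52 at 16 h. CYP1A1 had 1.05 where it had 2.35, CYP1B1 0.78 where it had 1.18, and CXCL5 0.49 where it had 1.22. NQO1 stood at 1.02 and 0.90, SLC7A11 at 0.81 and 0.97, ALDH1A3 at 1.39 and 0.93, and EDAR at 2.09 and 1.14, at 96 and 16 h. MT-ND5 had -1.12 and -1.70, and ANKRD1 -2.51 and -0.77. The differences between the times were not tested.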

How the data were processed

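RNA was measured in 46 libraries, 8 of them used here with 8 of the parental line. Per the labels' protocols, RNA was depleted of ribosomal RNA and made into stranded paired-end libraries. The authors deposited raw counts per gene, made with featureCounts 1.6.4 per the file headers; the submitters' processing notes name STAR 2.7.10a and GRCh38. The strand setting and annotation release are not given in the sources used here, so counts of overlapping or antisense genes are uncertain. A gene broken over 3 lines was left out, leaving 62756.

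Counts were tested in edgeR 4.0.16 (quasi-likelihood fit) over all 46 libraries (12 groups, TMM scaling, default filter, 21484 genes), with two-sided p-values adjusted by Benjamini-Hochberg. CPM are TMM-scaled. Standard errors were derived from the test, as the absolute log2 change divided by the square root of its F statistic. GC content came from GENCODE 29, gene length (merged exons) from the deposited counts, and promoters from RefSeq. The alternatives were other scalings, no filter, DESeq2 1.42.0, limma 3.58.1 voom with quality weights, the 8 or 16 compared libraries only, a replicate block, GC and length trends removed, no libraries under 5000000 counts, and each replicate left out. Same-numbered replicates at 0 and 16 h deviated together (r = 0.66, 0.12, 0.15 and 0.37), each over a threshold of 0.1. Pairs of unlike number also passed it, up to 0.44, and not every library correlated best with its own number. These values therefore cannot decide whether the replicates were paired. The main fit was unpaired, and the replicate block was an alternative. No 2 libraries agreed within sampling noise (chi-square per degree of freedom of at least 3.97). The script was tested on simulated data.

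The gene lists, the members and the tests were chosen with earlier results of these data known. The named genes were the lamins; the 10 largest rises and 10 largest falls among called genes with a symbol, at least 1 CPM and no overlap; the 5 next each way that were also called with the trend removed; the 5 largest differences each way from the parental response; and for each list its called members, up to 4, or its most abundant one. Where the naming rule required no overlap, that trait of a gene is no separate support for its call. A floor of 3 counts is the most that a count of 0 allows, for counting error only.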

Additional observations from a re-analysis of the deposited data

Results flagged for a closer look

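Within the 4 replicates of a group, the highest or lowest library stood apart from the others for 13 of 162 groups of values tested (Dixon's criterion, which chance meets in about 1 in 20), and 8 of the 13 were replicate 1 at 0 h. That replicate was highest for LMNB1 (295 CPM), ENDOG (29.5 CPM), HES7 (42.1 CPM) and SRM (287 CPM), and lowest for HEG1 (27.8 CPM), LGR5 (33.0 CPM), ADAR (318 CPM) and GAPDH (2521 CPM). At 0 h replicate 2 was lowest for FOS (18.0 CPM). At 16 h replicate 1 was lowest for ADAR (520.2 CPM), replicate 2 lowest for ST6GALNAC3 (1.14 CPM), replicate 3 highest for PTGS2 (18.9 CPM) and replicate 4 highest for CYP1A1 (24.3 CPM).

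The difference of the Lamin A/C response from the parental response, tested in the edgeR fit, passed for 11 named genes. On the log2 scale it was 2.20 for GPR183, 2.13 for ANKRD1, 1.72 for ASNS, 1.57 for HEG1, 1.56 for SYNE1 and 1.28 for SLC7A11. It was -1.12 for NUAK2, -1.11 for SRM, -1.07 for HGH1, -1.04 for BAMBI and -0.98 for CDX2.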

How the results depend on the processing

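The 383 calls at 16 h became 918 with no filter on low counts, 1248 with DESeq2, 2789 with voom quality weights, 11 with the 8 compared libraries only and 191 without libraries under 5000000 counts. They numbered from 44 to 2854 with 1 replicate left out. The totals stayed within 1.5 times of 383 with RLE scaling (436), library size only (416), the replicate block (336) and the trend removed (408). The genes called were not all the same. Of the 383, these settings in turn kept 321, 333, 299 and 228 in the same direction. Chosen after seeing the data, leaving out replicate 1 at 0 h together with the trend gave 142, and with the compared libraries only 229. The 25 genes whose response differed from the parental one became 45 with RLE scaling, 53 with library size only, 117 with no filter, 225 with DESeq2, 675 with voom quality weights, 15 with the replicate block, 103 with the trend removed and 67 without shallow libraries, and 13 to 139 with 1 replicate left out. The 2 alternatives chosen after seeing the data gave 166 and 454. RLE scaling moved the median change of all genes by -0.07 and library size by -0.03. The causes of these differences between settings were not tested. The replicate block changed no call of a named gene beyond the 11 given with a blocked p. An 8.96-fold range of depth over the 8 libraries limits low genes most.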
